A study of Helianthus annuus with 180 samples.

Results

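A set of 60 sunflower genes was chosen for transcripts that were first higher on the shaded side and later higher on the lit side of stems exposed to blue light from a single direction. The genes were selected on the side difference at 4 time points, counted in hours after dawn (zeitgeber time, ZT). A gene entered if its mean over all libraries reached 5 CPM, the read count scaled to library size, and the side difference was the log2 ratio of the mean CPM of shaded and lit libraries, each with 1 CPM added. The score of a gene was the smaller of 2 values, its mean difference at ZT4 and ZT5 and the negative of its mean difference at ZT15 and ZT18. Of 20726 genes that entered, 3972 had a score above 0, and the 60 with the largest score were kept. The side differences at ZT4, ZT5, ZT15 and ZT18 are therefore described here and were not tested. The comparisons tested were at the other chamber time points and in plants tracking the sun in a field. Their side differences did not enter the score. The filter at 5 CPM did count all chamber libraries, also those of the tested times. Shares of all genes below cover every gene tested (32644 in the chamber and 34315 in the field), also those under 5 CPM, which could not enter.

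A stem bends when its flanks elongate at unequal rates. In the classical account of phototropism, phototropin photoreceptors perceive blue light, and auxin moves toward the shaded flank by way of PIN efflux carriers. There, those auxin response factors (ARFs) that are activators, which Aux/IAA proteins hold in check, switch on growth genes. Downstream, SAUR proteins promote acidification of the cell wall, expansins loosen it, xyloglucan endotransglucosylase/hydrolases (XTHs) cut and rejoin its xyloglucan chains, and pectin methylesterases with their inhibitors set how stiff its pectin is. Stems that have bent can later straighten again by growth on the opposite flank, a response called autostraightening, and stems of solar-tracking plants turn west by day and back east by night.

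All plants were wild type (WT) of the inbred line HA412-HO and 2 weeks old at harvest. In the phototropism experiment, chamber-grown plants faced unidirectional blue light from ZT3, and peels from the shaded and the lit side of the stem were taken at 9 times: ZT3, ZT4, ZT5, ZT7 and ZT9 by day, then ZT12, ZT15, ZT18 and ZT21, with 6 libraries per side and time point. In the heliotropism experiment, plants that had been set out in a field as seedlings, 4 to 5 days old, were sampled on the east and west sides every 4 h over 2 days from dawn with 3 libraries per side and time, and the 2 days were joined into 6 libraries per side at each of 6 times of day. Each library pooled peels of 2 plants, so replicates were different plants. A peel holds epidermis, cortex and vascular tissue, and in such bulk RNA fewer cells of a type and less RNA per cell cannot be told apart. Estimated counts per library totalled 4485611 to 28394943 (median 11119560) in the chamber and 5074975 to 30834562 (median 16615264) in the field, and no 2 libraries were near-identical. At ZT7, replicate 2 of the lit side stood apart in this gene set, holding the highest of the 6 lit values for 45 of the 60 genes. On the shaded side, replicate 1 held the highest value for 42 genes at ZT5, a time used in the selection. Replicate 4 of that side did so for 37 genes at ZT12.

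The scores of the 60 genes ran from 1.49 to 0.556. The last genes inside were a GATL10-like gene (Ha412HOChr09g0414211, 0.558), a pectin methylesterase (PME)-like gene (Ha412HOChr14g0692821, 0.556) and Ha412HOChr06g0254121 (0.556). The first genes outside were an XTH6-like gene (Ha412HOChr09g0407591, 0.555), a second XTH23-like gene (Ha412HOChr05g0208121, 0.552) and a gene of the NPH3 family (Ha412HOChr12g0580251, 0.549). The set therefore had no gap at its lower border. Mean chamber levels of the members ran from 5.10 to 615.1 CPM (median 20.9). By their identifiers the members lay on 16 of the chromosomes, with 7 on chromosome 15 and none on chromosome 8. Gene names come from the best Arabidopsis match listed by the study for 48 of the 60 and are written "-like". The other 12 members are given by identifier alone, and roles stated below are those known from Arabidopsis.

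By function the set held 3 Aux/IAA genes, 1 gene each of the ARF, PIN, SAUR, GH3 and BREVIS RADIX families, 4 XTH genes, 1 expansin, 2 LONGIFOLIA genes, a pectin methylesterase and a pectin methylesterase inhibitor (PMEI), 2 genes of brassinosteroid response, and the potassium channel KAT1-like. For 2 members, the PIN7-like auxin carrier on chromosome 1 and KAT1-like on chromosome 4, the study lists quantitative PCR primers. These are shown as listed, and whether they match only the named transcript was not tested. They are printed 5′ to 3′, with no base marked.
PIN7-like forward: gctgggctttgacttcttgc
PIN7-like reverse: cctaggcctgcatctgagag
KAT1-like forward: aatacgcctcaaccgttcac
KAT1-like reverse: caaccctccatgtccaaaac

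The side difference of the set turned over between ZT7 and ZT15. At ZT3, when the light began, the median difference of the 60 genes was -0.06 on the log2 scale and 24 were higher on the shaded side. The medians chosen by the rule were 0.85 at ZT4 and 1.20 at ZT5, then -0.79 at ZT15 and -0.75 at ZT18, whereas the median over all genes stayed between -0.01 and 0.02 at those times. Between them the median fell through 0.47 at ZT7, 0.31 at ZT9 and -0.26 at ZT12, and at ZT21 it was -0.41.

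By the sign of the mean difference, which was not tested here, the genes did not all turn at the same time. Counted from ZT7 on, the mean of the lit side was first the higher one at ZT7 for 12 genes, at ZT9 for 5, at ZT12 for 22 and at ZT15 for 21. ARF16-like, the SAUR-like gene and BRXL3-like were among the 12 earliest, as was PIN7-like, whose difference of -0.03 at ZT7 returned to 0.26 at ZT9. Some differences at ZT7 were thus small, and the lit means there include the replicate 2 library that stood apart. A turn by ZT18 was fixed by the rule, which required a lit-sided mean over ZT15 and ZT18. IAA19-like, both IAA3-like genes, JAR1-like, EXPA8-like, XTH15-like, BES1-like and KAT1-like turned at ZT12. XTH33-like, XTH23-like, XTH16-like and the PMEI-like gene kept a higher shaded mean from ZT5 to ZT12 and turned at ZT15.

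Both sides of the stem contributed to the pattern. Relative to ZT3, the median change of the set on the shaded side was 0.48 at ZT4 and 0.68 at ZT5, with 46 genes up at each time, and on the lit side it was -0.49 and -0.58, with 43 and 53 genes down. From ZT7 to ZT18 the median changed by -0.78 on the shaded side, where 50 genes were lower, and by 0.60 on the lit side, where 48 were higher. These are changes of mean levels on the log2(CPM + 1) scale and describe the selected pattern.

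**Figure D1:**
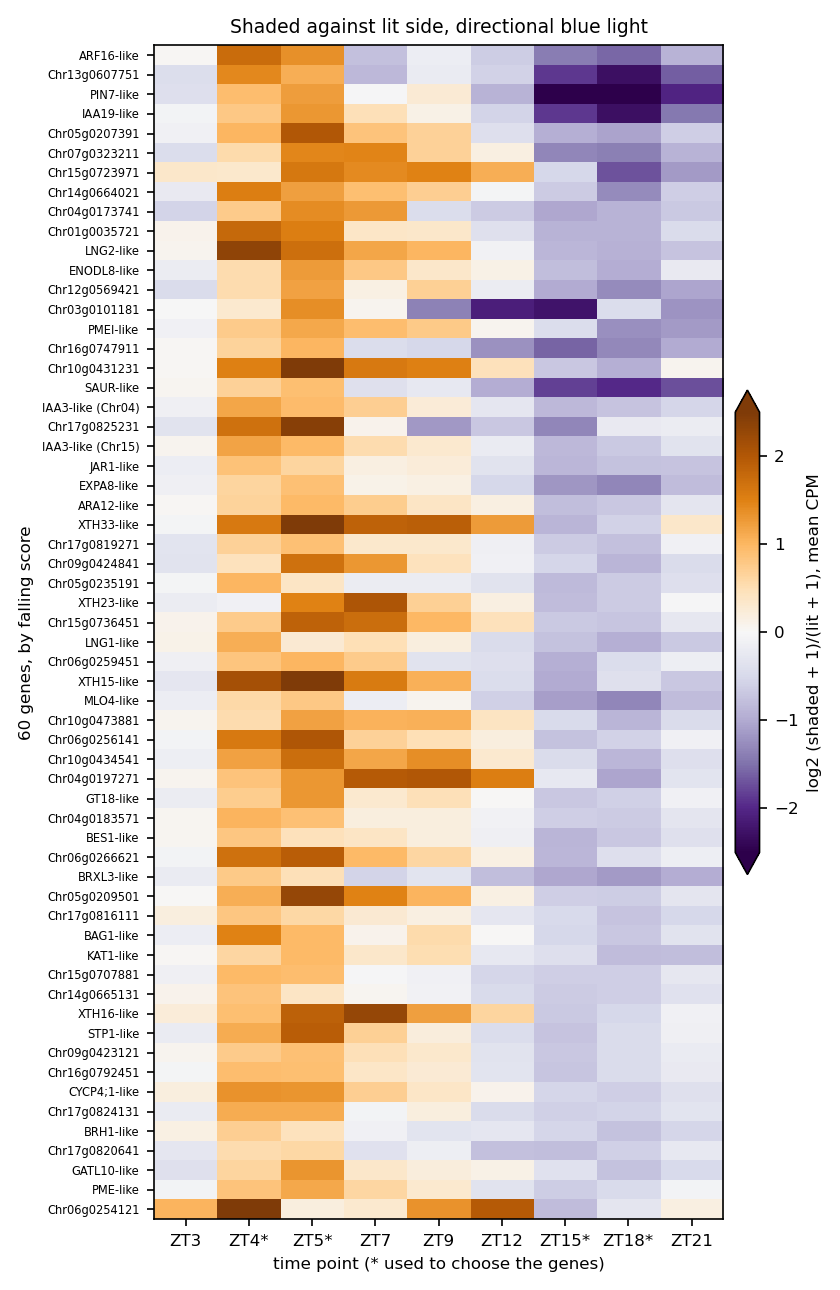
Heat map of the side difference of the 60 genes, as log2 of mean shaded over mean lit CPM with 1 CPM added, at the 9 chamber time points (6 libraries per side). The 4 time points used to choose the genes are marked, and the median runs from 1.20 at ZT5 to -0.79 at ZT15.

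At ZT3, when the blue light began, no difference between the sides was detected in the set. None of the 60 genes was called by edgeR's quasi-likelihood test at an adjusted p under 0.05, 0 had an unadjusted p under 0.05, and DESeq2 called 0. Over all 32644 genes tested, 0 percent were called higher on the shaded side and 0.00306 percent (1 gene) on the lit side.

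At ZT7, 4 h into the blue light, 24 of the 60 genes were called higher on the shaded side, where 11.4 percent of all genes were called, and 1 was called higher on the lit side, where 11.8 percent were. The median fold change of the set was 0.50 on the log2 scale (shaded over lit). Without replicate 2, the count of members called at ZT7 stayed within 1.5 times the full count. With the replicate number as a block, 31 genes were called higher on the shaded and 3 on the lit side. In that fit 37.3 percent of all genes were called, on either side. All 4 XTH genes, LNG2-like, both IAA3-like genes, the PMEI-like and the PME-like gene were among the 24.

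At ZT9, 10 genes were still called higher on the shaded side (10 percent of all genes) and 0 on the lit side (12.2 percent of all genes), against 2 at an unadjusted p under 0.05 and 1 by DESeq2. All 10 had also been called at ZT7, and their share of the set, 16.7 percent, was nearer to the background than at ZT7. With the replicate number as a block, since same-numbered libraries deviated together, 24 were called higher on the shaded side (17.7 percent of all genes under the block) and 1 on the lit side (19 percent). At ZT12, when the median was -0.30, 2 genes were called higher on the shaded side (7.31 percent of all genes) and 8 on the lit side (9.39 percent), a share close to the background. With the block the counts at ZT12 were 4 and 18, against 14.4 and 17.3 percent of all genes, and without replicate 1 only 6 genes were called.

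At ZT21, whose side difference did not enter the score, the lit side was the higher one. Of the 60 genes, 13 were called higher on the lit side, compared with 4.03 percent of all genes, and 0 on the shaded side, compared with 2.19 percent. None was higher on the shaded side at an unadjusted p under 0.05 or by DESeq2. In 57 of the 60 the fitted fold change was negative, with a median of -0.41, and in 12 every lit library stood above every shaded one, as in 3.15 percent of all genes with CPM values. With the replicate block 26 genes were called higher on the lit side (9.48 percent of all genes) and 0 on the shaded side (8.01 percent), and without replicate 1 the count fell to 8.

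The change of the side difference from ZT7 to ZT21 was tested as an interaction. It was called toward the lit side in 21 genes, against 2.2 percent of all genes, and toward the shaded side in 0, against 1.38 percent. The median change was -1.0 on the log2 scale, and none was called toward the shaded side by DESeq2 or at an unadjusted p under 0.05. With the replicate block 40 were called toward the lit side (9.38 percent of all genes) and 0 toward the shaded side (8.61 percent). The count was 10, 8 and 8 without replicates 1, 3 and 4, with at most 27 when another number was left out. Without the block 2 genes were called in opposite directions at ZT7 and ZT21, the PMEI-like gene and Ha412HOChr15g0723971, and with it 10 were, among them both IAA3-like genes, LNG1-like, LNG2-like and BES1-like. Under the block 37.3 percent of all genes were called at ZT7 and 17.5 percent at ZT21, on either side. How many of all genes were called in opposite directions was not counted.

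Over the set, calls were made within both sides, but mostly in different genes. On the shaded side, 21 genes rose from ZT3 to ZT7 (5.92 percent of all genes) and 4 fell (6.52 percent), and from ZT7 to ZT21 1 rose (6.09 percent) and 21 fell (6.44 percent). The last count was 12 falling and rising genes together without replicate 4. On the lit side, 4 genes rose from ZT3 to ZT7 (11.4 percent) and 14 fell (10.8 percent), and from ZT7 to ZT21 24 rose (9.00 percent) and 3 fell (9.38 percent). Of the 21 genes that rose on the shaded side from ZT3 to ZT7, 0 were also called falling on the lit side, as 23.3 percent of the set were. Of the 24 that rose on the lit side from ZT7 to ZT21, 2 were also called falling on the shaded side, as 35.0 percent of the set were.

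The PIN7-like gene (Ha412HOChr01g0035481), a carrier that exports auxin from cells, was not called between sides at ZT7. Its 6 shaded libraries lay at 21.5 to 62.4 CPM (median 34.8) and its lit libraries at 15.8 to 86.5 CPM (median 27.3), so the ranges overlapped widely. It rose on both sides from ZT3 to ZT7, by 1.64 ± 0.34 (SE) on the log2 scale on the shaded and 1.27 ± 0.34 on the lit side (adjusted p = 2.35e-04 and 0.00296).

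At ZT21 the PIN7-like gene lay at 9.71 to 19.3 CPM (median 14.9) on the shaded and 57.9 to 81.8 CPM (median 63.0) on the lit side. Every lit library stood above every shaded one, and the fold change was -2.10 ± 0.34 (adjusted p = 2.73e-06), the largest lit-side difference called in the set at that time. The side difference had been -0.96 ± 0.34 at ZT12 (adjusted p = 0.0375).

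IAA19-like (Ha412HOChr12g0543321), an auxin-induced Aux/IAA repressor, showed the same separation at a lower level. At ZT21 its shaded libraries lay at 2.26 to 4.64 CPM (median 2.56) and its lit libraries at 7.33 to 12.8 CPM (median 9.13). The groups did not overlap, with a fold change of -1.74 ± 0.38 (adjusted p = 8.59e-04), and the change from ZT7 was -2.23 ± 0.53 (adjusted p = 0.0076). On the shaded side the transcript rose by 1.13 ± 0.36 from ZT3 to ZT7 (adjusted p = 0.0253).

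The SAUR-like gene (Ha412HOChr16g0802041), of a family of small auxin-induced growth proteins, was at 2.00 to 3.94 CPM (median 3.25) on the shaded and 10.4 to 14.5 CPM (median 12.9) on the lit side at ZT21. The lit libraries were all higher, with a fold change of -2.0 ± 0.30 (adjusted p = 3.77e-07). It rose on both sides between ZT3 and ZT7, by 2.32 ± 0.32 on the lit side (adjusted p = 5.94e-09), the largest lit-side rise of a member, and by 1.79 ± 0.31 on the shaded side (adjusted p = 8.63e-06).

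The 2 IAA3-like genes, also Aux/IAA repressors, were called earlier in the day. At ZT7 the gene on chromosome 4 (Ha412HOChr04g0178131) lay at 43.0 to 59.3 CPM (median 47.9) on the shaded and 26.2 to 37.8 CPM (median 27.4) on the lit side, with no overlap and a fold change of 0.72 ± 0.18 (adjusted p = 0.00154). The gene on chromosome 15 (Ha412HOChr15g0697381) lay at 41.1 to 58.0 CPM (median 47.1) and 24.6 to 44.5 CPM (median 30.2), with a small overlap and a fold change of 0.53 ± 0.14 (adjusted p = 0.00234). Under the replicate block both were also called at ZT21, at -0.49 (adjusted p = 0.001) and -0.34 (adjusted p = 0.0179). As relatives with the same best match, they may have shared short reads, and how the counts split between them is uncertain.

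ARF16-like (Ha412HOChr02g0082371), an auxin response factor, had the largest score and was the only member called toward the lit side at ZT7 without the replicate block. Its shaded libraries lay at 8.77 to 17.5 CPM (median 9.92) and its lit libraries at 5.59 to 42.6 CPM (median 19.1), with wide overlap and a fold change of -0.85 ± 0.32 (adjusted p = 0.0428). With the replicate block the call was lost (-0.54, adjusted p = 0.155), and the highest lit value came from the library that stood apart. At ZT21 ARF16-like was called only with the block (-0.93, adjusted p = 0.0121). The block called 3 other members toward the lit side at ZT7, among them BRXL3-like (-0.54, adjusted p = 0.0239).

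JAR1-like (Ha412HOChr06g0253411), of the GH3 family that joins amino acids to hormones, was called at ZT21, at 6.29 to 9.09 CPM (median 8.11) on the shaded and 10.4 to 17.4 CPM (median 13.6) on the lit side. These ranges were separate, with a fold change of -0.80 ± 0.20 (adjusted p = 0.00541). BRXL3-like (Ha412HOChr04g0145971), of the BREVIS RADIX family, lay at 6.44 to 14.3 CPM (median 10.6) and 14.2 to 23.8 CPM (median 21.6), touching at the border, with a fold change of -1.0 ± 0.25 (adjusted p = 0.00455).

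**Figure D2:**
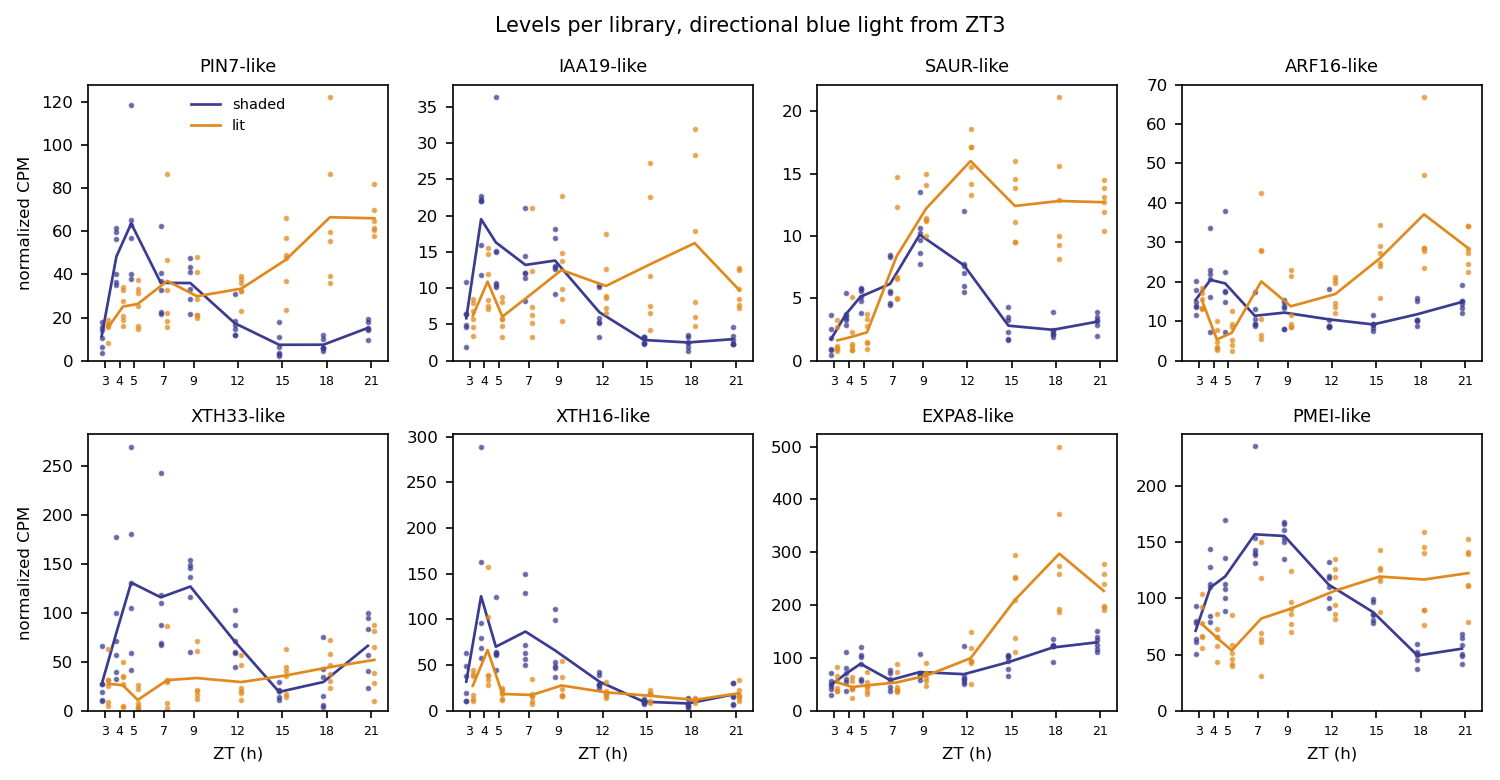
CPM of 8 genes on the shaded and lit sides at the 9 chamber time points, each point a library and each line the mean of 6. PIN7-like, IAA19-like and SAUR-like separate at ZT21 with the lit side higher (medians of 63.0, 9.13 and 12.9 CPM against 14.9, 2.56 and 3.25), whereas at ZT7 XTH16-like separates with the shaded side higher (67.2 against 16.5) and XTH33-like has the higher shaded median (99.0 against 29.7) with overlap.

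All 4 XTH genes were called toward the shaded side at ZT7. XTH16-like (Ha412HOChr14g0656311) lay at 50 to 149.4 CPM (median 67.2) on the shaded and 7.11 to 34.3 CPM (median 16.5) on the lit side at ZT7. The groups did not overlap, with a fold change of 2.31 ± 0.42 (adjusted p = 9.45e-06), and the change to ZT21 was -2.46 ± 0.58 (adjusted p = 0.0076).

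XTH23-like (Ha412HOChr05g0208181) lay at 87.0 to 382.3 CPM (median 212.3) on the shaded and 21.3 to 91.2 CPM (median 49.3) on the lit side, overlapping only at the border, with a fold change of 2.03 ± 0.47 (adjusted p = 5.29e-04). XTH33-like (Ha412HOChr17g0856591) lay at 66.7 to 243.5 CPM (median 99.0) and 2.65 to 86.2 CPM (median 29.7), with overlap and a fold change of 1.86 ± 0.58 (adjusted p = 0.0117). XTH15-like (Ha412HOChr11g0492571) was at 6.21 to 33.7 CPM (median 19.4) and 1.38 to 11.1 CPM (median 7.52), also overlapping, with a fold change of 1.67 ± 0.50 (adjusted p = 0.00783). For XTH15-like the lit side fell by 3.33 on the log2 scale from ZT3 to ZT7 (SE 0.52, adjusted p = 1.81e-07), the largest such fall in the set. The XTH family has many close members, so reads shared between them make the value of each one uncertain.

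The replicate block added calls for this family between ZT7 and ZT21. XTH23-like was then called for the change from ZT7 to ZT21 (-2.10, adjusted p = 2.12e-07), as was XTH33-like (-1.72, adjusted p = 0.0125). None of the 4 was called at ZT21 without the block or with it. The blocked values at ZT21 were -0.88 for XTH15-like, -0.24 for XTH16-like and -0.06 for XTH23-like (adjusted p = 0.134, 0.452 and 0.902). XTH33-like was at 0.48, toward the shaded side (adjusted p = 0.387).

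EXPA8-like (Ha412HOChr14g0689301), an expansin, followed another course. It rose from ZT7 to ZT21 on both sides, by 1.19 ± 0.25 on the shaded and 2.08 ± 0.25 on the lit side (adjusted p = 2.52e-04 and 2.18e-10). At ZT21 it lay at 111.4 to 151.1 CPM (median 128.7) on the shaded and 190.7 to 277.5 CPM (median 219.1) on the lit side. All lit libraries were higher, with a fold change of -0.80 ± 0.24 (adjusted p = 0.0271).

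LNG2-like (Ha412HOChr09g0412521) and LNG1-like (Ha412HOChr15g0734811) are relatives of the LONGIFOLIA genes, which promote lengthwise cell elongation. At ZT7 LNG2-like lay at 9.47 to 25.8 CPM (median 14.9) on the shaded and 4.15 to 7.99 CPM (median 6.73) on the lit side. The groups were separate, with a fold change of 1.27 ± 0.29 (adjusted p = 4.16e-04), and the change to ZT21 was -2.03 ± 0.40 (adjusted p = 0.00124). LNG1-like was not called at ZT7 without the block, but it rose on the lit side to ZT21 by 1.68 ± 0.25 (adjusted p = 1.57e-07) and its side difference changed by -1.21 ± 0.35 (adjusted p = 0.0333).

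The PMEI-like gene (Ha412HOChr06g0266421), an inhibitor of pectin methylesterase chosen after its values were seen, was called in opposite directions at ZT7 and ZT21. At ZT7 it lay at 131.3 to 236.1 CPM (median 141.6) on the shaded and 30.8 to 149.9 CPM (median 66.6) on the lit side, overlapping through the lit library that stood apart, with a fold change of 0.91 ± 0.20 (adjusted p = 1.95e-04). At ZT21 it lay at 41.5 to 68.4 CPM (median 54.2) and 79.1 to 153.3 CPM (median 125.6), with no overlap and a fold change of -1.14 ± 0.20 (adjusted p = 9.23e-06).

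Ha412HOChr15g0723971, a member with no listed Arabidopsis match, was the other gene called in both directions without the block. At ZT7 it was at 3.84 to 10.9 CPM (median 8.45) on the shaded and 1.43 to 5.27 CPM (median 1.96) on the lit side, and at ZT21 at 5.22 to 12 CPM (median 9.63) and 11.2 to 38.6 CPM (median 20.2). The ranges overlapped at both times. The fold changes were 1.71 ± 0.41 and -1.21 ± 0.38 (adjusted p = 9.33e-04 and 0.0363), and the change of -2.92 ± 0.56 (adjusted p = 8.95e-04) was the largest called in the set. Its lit level rose by 3.17 ± 0.42 from ZT7 to ZT21 (adjusted p = 4.68e-09).

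KAT1-like (Ha412HOChr04g0179931), an inward potassium channel, was called at ZT21. It lay at 17.9 to 36.4 CPM (median 26.7) on the shaded and 41.0 to 56.9 CPM (median 45.3) on the lit side, with no overlap and a fold change of -0.80 ± 0.23 (adjusted p = 0.0202). STP1-like (Ha412HOChr05g0202511), a hexose transporter chosen after its values were seen, had a fold change of 0.69 ± 0.22 at ZT7 (adjusted p = 0.0152). BES1-like (Ha412HOChr16g0760541), a transcription factor of brassinosteroid signaling, was not called between sides in the chamber without the block, but fell on the lit side by 0.76 on the log2 scale from ZT3 to ZT7 and rose by 1.1 ± 0.17 to ZT21 (adjusted p = 3.41e-04 and 4.32e-07). BRH1-like (Ha412HOChr02g0077531), a RING-finger gene repressed by brassinosteroid, was called in none of the tested comparisons without the block, and only at ZT21 with it (-0.60, adjusted p = 0.034).

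Several members with no listed match or a family name only completed the extremes. Ha412HOChr04g0197271 had the largest fold change at ZT7, with 1.70 to 24.9 CPM (median 10) on the shaded and 0.597 to 3.53 CPM (median 2.22) on the lit side, which overlapped (2.36 ± 0.54, adjusted p = 5.08e-04). It also had the largest called shaded-side difference at ZT9 (2.32) and ZT12 (1.82) and the largest value in the shaded-side rise from ZT3 to ZT7 (2.90). Its chamber mean of 5.10 CPM was just above the filter at 5 CPM, which counted these libraries too. At ZT12 a gene of the glucose-methanol-choline oxidoreductase family (Ha412HOChr03g0101181) was the most lit-sided, at 0.757 to 3.69 CPM (median 2.31) on the shaded and 1.24 to 27.5 CPM (median 12.4) on the lit side, with overlap (-2.54 ± 0.63, adjusted p = 0.00208).

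A mitochondrial carrier gene (Ha412HOChr13g0607751), second by score, was called at ZT21 (-1.67 ± 0.48, adjusted p = 0.0167). Ha412HOChr04g0173741 fell most on the shaded side from ZT7 to ZT21 (-4.83 ± 1.01, adjusted p = 2.83e-04) and Ha412HOChr17g0825231 fell most on the lit side (-3.56 ± 0.86, adjusted p = 0.00118). The GATL10-like gene, of a family of galacturonosyltransferase-like proteins, fell most on the shaded side from ZT3 to ZT7 (-1.55 ± 0.35, adjusted p = 8.03e-04). Among the others of the 10 largest scores, the RING/U-box gene Ha412HOChr05g0207391 (0.90, adjusted p = 0.0102) and Ha412HOChr07g0323211 (1.66, adjusted p = 0.0101) were called at ZT7. The thaumatin-like gene Ha412HOChr14g0664021 and the leucine-rich repeat kinase gene Ha412HOChr01g0035721 were called in the chamber only within a side without the block, at 1.23 ± 0.41 for the shaded-side rise from ZT3 to ZT7 of the former and -0.86 ± 0.26 for the lit side of the latter (adjusted p = 0.0336 and 0.00871). With the block the former was also called between sides at ZT7 (0.99, adjusted p = 1.32e-04), ZT9 (0.80, adjusted p = 0.00181) and ZT21 (-0.71, adjusted p = 0.0209), and the change from ZT7 to ZT21 was called for both (-1.70 and -0.91, adjusted p = 4.77e-05 and 0.00735).

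The same 60 genes were then followed in the field, where the stem bends with the sun and no field value had entered the selection. More of them were called toward the east side by day, at ZT8, and toward the west side at ZT16, after dusk. At ZT0, edgeR called 0 genes on either side, against 0.0321 percent of all 34315 genes tested on the west and 0.0233 percent on the east side. At an unadjusted p under 0.05, 11 genes were higher on the west and 1 on the east side, and DESeq2 called 1, on the west. The share of all genes at that unadjusted threshold was not counted. The first day alone called 4, all on the west side (0.109 percent of all genes on either side), and the second day 0. At ZT4, 3 genes were called higher on the east side (0.128 percent of all genes) and 0 on the west (0.0233 percent, with 0 at an unadjusted p under 0.05 and 0 by DESeq2). The 3 were PIN7-like, the SAUR-like gene and the IAA3-like gene on chromosome 4, and the count was 0, 0 and 1 without replicates 1, 2 and 3, and 2 and 0 on the first and second day alone. Of all genes, 0.0856 and 0.00909 percent were called on those single days, on either side. With the replicate block, 1 gene was called on the west at ZT0 (0.787 percent of all genes), XTH15-like, and 0 on the east (0.390 percent), and at ZT4 the counts were 1 on the west and 12 on the east side (0.819 and 0.737 percent of all genes).

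At ZT8, 17 genes were called higher on the east side, compared with 0.866 percent of all genes, and 0 on the west, compared with 0.708 percent. At an unadjusted p under 0.05, 1 was higher on the west side, and DESeq2 called 0 there. The median fold change, west over east, was -0.55, 54 of the 60 were negative, and in 11 every east library stood above every west one, as in 0.851 percent of all genes with CPM values. Each day alone gave 9 calls, all toward the east, where 0.835 and 0.33 percent of all genes were called on either side. The counts without replicates 1, 2 and 3 were 7, 5 and 10.

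At ZT12 the set was split, with 10 genes called higher on the west (0.635 percent of all genes) and 5 on the east (1.15 percent). The counts were 4 and 7 on the 2 days alone, where 0.339 and 0.509 percent of all genes were called on either side. They were 8 and 7 without replicates 1 and 2. With the replicate block 22 genes were called on the west and 8 on the east side, against 3.28 and 4.82 percent of all genes. The 5 east-sided genes included XTH33-like and XTH23-like, and the 10 west-sided genes included PIN7-like, IAA19-like, EXPA8-like, BRXL3-like and both IAA3-like genes.

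At ZT16, 42 of the 60 genes were called higher on the west side, compared with 3.43 percent of all genes, and 0 on the east, compared with 2.35 percent. None was higher on the east at an unadjusted p under 0.05 or by DESeq2. The median fold change was 0.88, 57 of 60 were positive, and in 32 every west library stood above every east one, as in 2.08 percent of all genes with CPM values. The first day alone gave 27 calls and the second day 35, all toward the west, against 1.96 and 2.12 percent of all genes on either side. All 17 genes called toward the east at ZT8 were among the 42, which held 70 percent of the set.

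At ZT20, 10 genes were called higher on the west side (2.63 percent of all genes) and 2 on the east (0.918 percent), and the median was 0.04. All 10 west-sided genes had been called at ZT16. This count was the least stable, at 1 on the first and 11 on the second day, and at 5, 0 and 5 without replicates 1, 2 and 3. Of all genes, 0.221 percent were called on the first and 1.79 percent on the second day, on either side. The change of the side difference from ZT8 to ZT16, a comparison added after the data had been seen, was called toward the west in 44 genes (4.5 percent of all genes) and toward the east in 0 (3.67 percent, with 0 at an unadjusted p under 0.05 and 0 by DESeq2). Its median was 1.37, and the days alone gave 34 and 40 calls, against 3.86 and 2.77 percent of all genes in either direction.

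**Figure D3:**
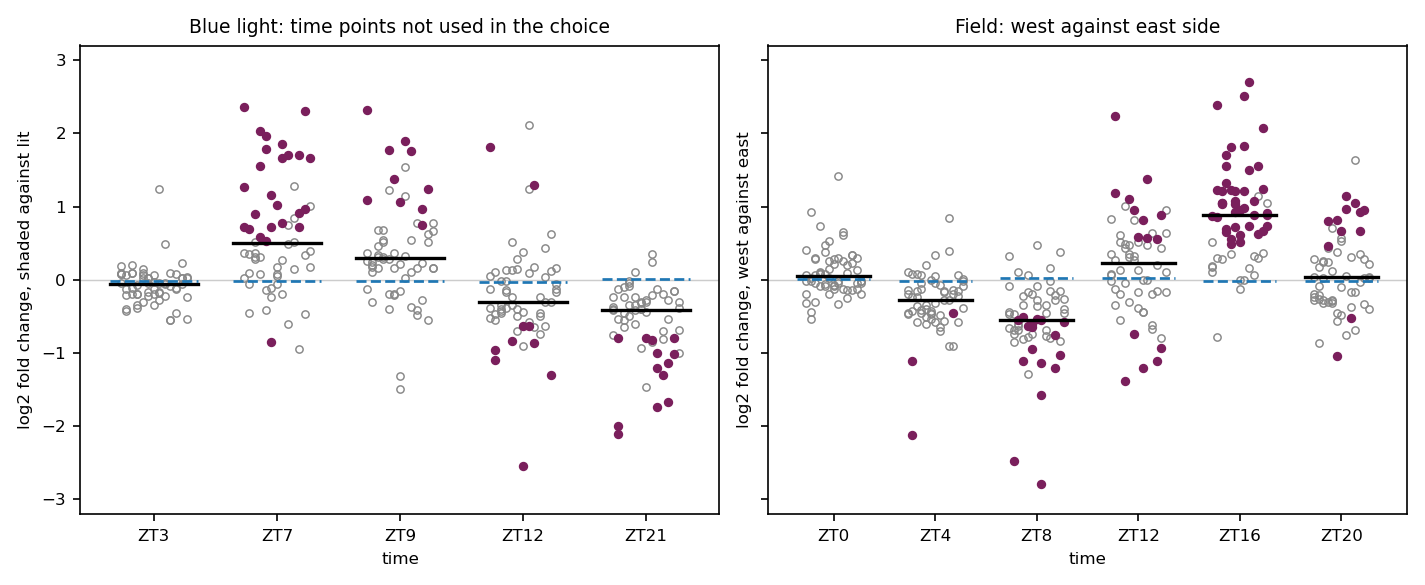
Fitted log2 fold changes of the 60 genes in the chamber (shaded over lit) and the field (west over east), 1 point per gene, with filled points called at an adjusted p under 0.05 a solid bar at their median and a dashed bar at the median of all genes tested. Field medians run from -0.55 at ZT8 to 0.88 at ZT16, and 3 field values of Ha412HOChr06g0254121 (-8.16 at ZT4, -9.22 at ZT8 and 5.12 at ZT20, none called) lie beyond the axis.

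PIN7-like changed sides early in the field. At ZT8 it lay at 6.98 to 13.9 CPM (median 9.00) on the west and 8.75 to 24.6 CPM (median 17.4) on the east side, overlapping and not called (-0.85 ± 0.26, adjusted p = 0.0816). At ZT12 it lay at 16.8 to 31.1 CPM (median 22.2) on the west and 2.44 to 7.47 CPM (median 4.91) on the east. The west side was then higher in every library, with a fold change of 2.24 ± 0.27 (adjusted p = 1.77e-08).

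At ZT16 PIN7-like reached 44.8 to 69.7 CPM (median 58.6) on the west and 4.87 to 17.0 CPM (median 9.97) on the east side. These groups were far apart, with a fold change of 2.39 ± 0.25 (adjusted p = 5.24e-10) and 1.65 and 3.49 on the 2 days alone. IAA19-like showed the largest difference of the set at ZT16, at 25.7 to 53.4 CPM (median 39.2) on the west and 3.05 to 8.82 CPM (median 6.37) on the east. Its groups did not overlap either, with a fold change of 2.70 ± 0.34 (adjusted p = 3.31e-08) and 2.14 and 3.32 on the days alone.

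The SAUR-like gene had a strong daytime difference. At ZT4 it lay at 0.304 to 1.98 CPM (median 0.881) on the west and 2.52 to 5.74 CPM (median 4.34) on the east, and at ZT8 at 2.53 to 6.68 CPM (median 3.12) and 15.1 to 25.4 CPM (median 20.2). The east side was higher in every library at both times, with fold changes of -2.12 ± 0.33 and -2.47 ± 0.28 (adjusted p = 6.73e-05 and 4.92e-09). At ZT16 the west side had 4.19 to 7.15 CPM (median 5.24) and the east 1.70 to 4.33 CPM (median 2.94), nearly separate, with a fold change of 0.86 ± 0.27 (adjusted p = 0.0457). On the first day alone the ZT16 value was 0.39 and not called (adjusted p = 0.616), and on the second it was 1.61 (adjusted p = 0.0377).

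ARF16-like differed in both directions at night. At ZT16 it lay at 17.4 to 35.4 CPM (median 19.2) on the west and 7.66 to 15.1 CPM (median 11.7) on the east (1.04 ± 0.23, adjusted p = 0.00143), with no overlap. At ZT20 it lay at 7.97 to 16.3 CPM (median 9.43) and 13 to 29.5 CPM (median 20.6), with overlap and the east side higher (-1.04 ± 0.23, adjusted p = 0.0035). The ZT16 difference was 0.35 on the first day (adjusted p = 0.61) and 1.80 on the second (adjusted p = 1.92e-04), so it was not called on the first day alone. The ZT20 difference was not called on the second day alone (-0.92, adjusted p = 0.0836).

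Further members of the Aux/IAA, GH3 and BREVIS RADIX families were called. The IAA3-like gene on chromosome 15 was called toward the west at ZT12 (1.10 ± 0.13, adjusted p = 1.77e-08) and ZT16 (0.56 ± 0.13, adjusted p = 0.00221), and its relative on chromosome 4 at ZT12 (0.56 ± 0.10, adjusted p = 3.95e-04). JAR1-like was called at ZT16 (0.61 ± 0.15, adjusted p = 0.005) and BRXL3-like at ZT16 (0.74 ± 0.16, adjusted p = 9.44e-04). The ZT12 call of the chromosome 4 gene was lost on the second day alone (0.49, adjusted p = 0.118). None of the 3 ZT16 calls was made on the first day alone, when the values were 0.13 for IAA3-like on chromosome 15, 0.39 for JAR1-like and 0.30 for BRXL3-like (adjusted p = 0.75, 0.115 and 0.567). On the second day they were 1.13, 0.86 and 1.20 (adjusted p = 2.69e-05, 0.0155 and 5.60e-04).

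XTH33-like had the widest swing in the field. At ZT8 it lay at 1.14 to 3.88 CPM (median 2.44) on the west and 13.6 to 21.7 CPM (median 16.2) on the east, and at ZT16 at 141.3 to 314.7 CPM (median 178.2) and 25.3 to 48.7 CPM (median 34.7). Neither pair of groups overlapped, and the sides exchanged rank. The fold changes were -2.79 ± 0.40 and 2.51 ± 0.33 (adjusted p = 4.66e-06 and 1.65e-07), and the change between them, 5.30 ± 0.52 (adjusted p = 2.74e-11), was the largest called in the set. Its west-sided call at ZT20 (1.15 ± 0.32, adjusted p = 0.025) was absent on the first day, when the value was -0.16.

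XTH16-like and XTH23-like also ended west-sided. At ZT16 XTH16-like lay at 27.0 to 51.6 CPM (median 34.8) on the west and 7.01 to 11.3 CPM (median 8.45) on the east, fully separate (2.08 ± 0.28, adjusted p = 2.37e-07). At ZT12 XTH23-like was the most east-sided member called, at 28.2 to 67.8 CPM (median 44) on the west and 70.2 to 154.4 CPM (median 122.5) on the east, also separate (-1.38 ± 0.27, adjusted p = 8.89e-04), and at ZT16 it was west-sided (1.70 ± 0.27, adjusted p = 9.39e-06). XTH15-like changed from -1.57 ± 0.42 at ZT8 to 1.21 ± 0.36 at ZT16 (adjusted p = 0.0315 and 0.0293), and on the second day alone neither was called (-1.53 and 1.03, adjusted p = 0.501 and 0.457). The ZT12 difference of XTH23-like was not called on the first day alone (-0.95, adjusted p = 0.317).

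EXPA8-like lay at 247.8 to 345.3 CPM (median 279.4) on the west and 85.2 to 160.4 CPM (median 127.5) on the east side at ZT16. All west libraries were higher, with a fold change of 1.22 ± 0.17 (adjusted p = 6.93e-07), much as at ZT12 (1.18 ± 0.18, adjusted p = 6.38e-06). On the first day alone the ZT12 value was 0.88 and not called (adjusted p = 0.0972).

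The PMEI-like gene, called in both directions in the chamber, was also called in both in the field. At ZT8 it lay at 44.6 to 63.7 CPM (median 50.6) on the west and 70.7 to 105.7 CPM (median 89.1) on the east (-0.75 ± 0.14, adjusted p = 6.69e-04). At ZT16 it lay at 113.3 to 164.3 CPM (median 128.9) and 66.7 to 111.2 CPM (median 86.5) (0.63 ± 0.14, adjusted p = 0.0018). The groups were separate at both times. On single days the values were -0.68 and -0.82 at ZT8 and 0.62 and 0.64 at ZT16, none of them called (lowest adjusted p = 0.0576).

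BES1-like lay at 39.7 to 57.2 CPM (median 50.6) on the west and 20.5 to 40 CPM (median 28.5) on the east side at ZT16, barely overlapping (0.73 ± 0.15, adjusted p = 9.30e-04). The values were 0.39 on the first day (adjusted p = 0.175) and 1.18 on the second (adjusted p = 8.66e-04), so the first day alone gave no call. KAT1-like, LNG1-like, LNG2-like, BRH1-like and the GATL10-like gene were called at no field time without the block, which does not show that their sides were alike. With it, KAT1-like was called toward the west at ZT8, ZT12 and ZT16 (0.42, 0.45 and 0.35, adjusted p = 0.0245, 0.00833 and 0.0363) and LNG2-like at ZT12 (0.76, adjusted p = 0.00477). Ha412HOChr15g0723971, which reversed in the chamber, was not called in the field either. Ha412HOChr06g0254121, the last gene inside the set, was listed at 0 in 48 chamber and 67 of 72 field libraries, and at ZT8 it was at 0 in every west library and at 0 in the east except for 1 library at 27.7 CPM.

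**Figure D4:**
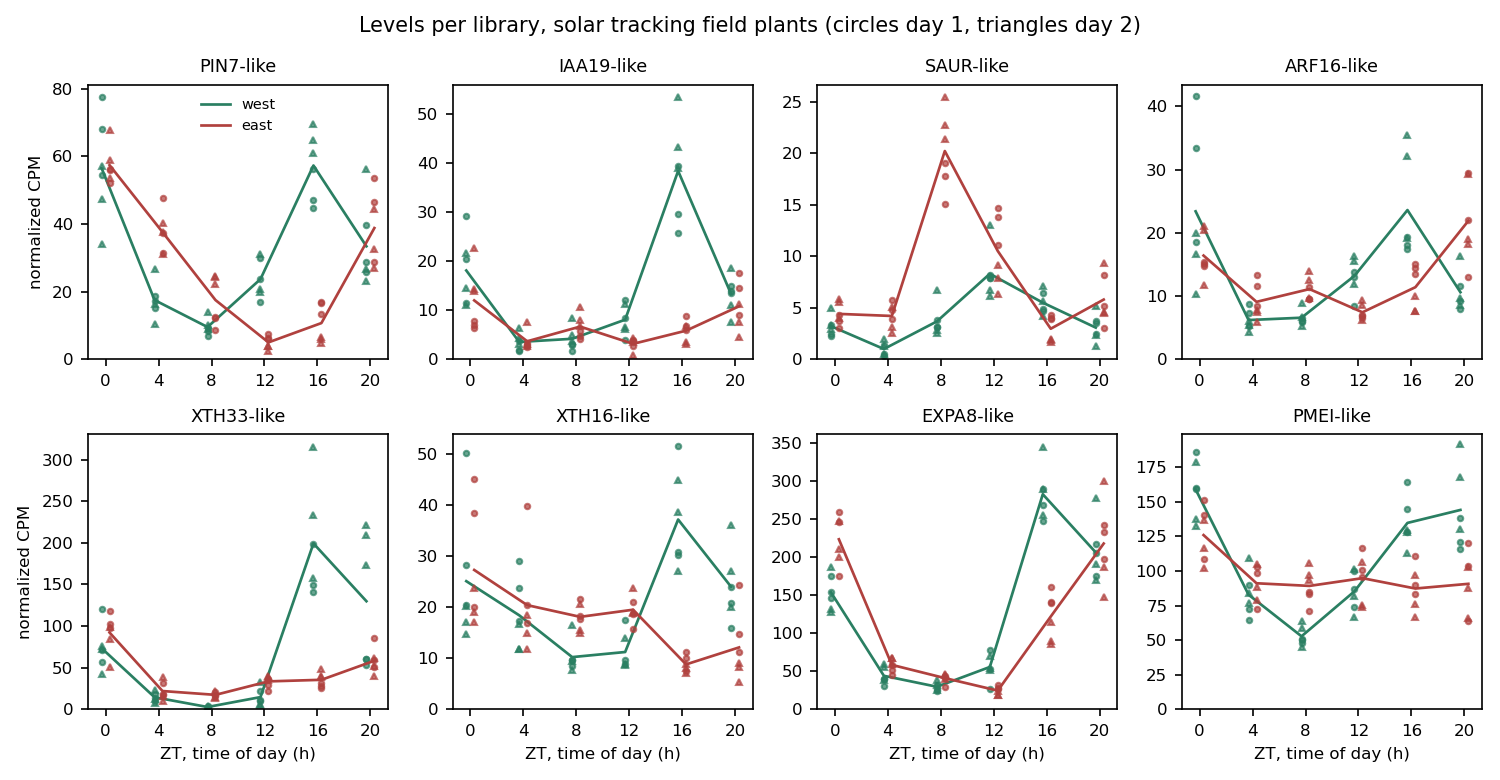
CPM of 8 genes on the west and east sides at 6 times of day in the field, each point a library (circles day 1, triangles day 2) and each line the mean of 6. At ZT16 the west medians exceed the east for PIN7-like (58.6 against 9.97 CPM), IAA19-like (39.2 against 6.37) and XTH33-like (178.2 against 34.7), and at ZT8 the east exceeds the west for SAUR-like (20.2 against 3.12).

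Calls in the chamber and the field were set side by side, since they came from separate plants. Of the 24 genes called toward the shaded side at ZT7, 11 were called toward the east at ZT8 (45.8 percent, compared with 28.3 percent of all 60), or 11 of the 17 east-sided genes. At ZT16, 17 of the 24 were called toward the west (70.8 percent), as were 10 of the 13 genes called toward the lit side at ZT21 (76.9 percent). Both shares were near the 70 percent of the whole set called there. PIN7-like, IAA19-like, SAUR-like, JAR1-like, BRXL3-like, EXPA8-like and the PMEI-like gene were among those 10.

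A 24 h rhythm, fitted as a cosine to each side in the field, was called at q under 0.05 for 51 of the 60 genes on the east side (74.3 percent of all genes) and 49 on the west (70.0 percent), shares near the background. Where the set differed from all genes was in the time of the peak. On the west side, 30 of the 44 genes rhythmic on both sides (68.2 percent) peaked between ZT16 and ZT20, as did 16.4 percent of the 21325 genes rhythmic on both sides. On the east side 21 of the 44 (47.7 percent) peaked between ZT20 and ZT24, compared with 19.7 percent of all such genes.

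The west side peaked earlier than the east in 33 of the 44 genes, and in 55.4 percent of all genes. The median difference was -1.4 h, compared with -0.1 h over all genes, and 9 of the 44 (20.5 percent) peaked more than 3 h apart, compared with 6.42 percent of all genes. No test was made of these shares.

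Among the genes far apart, PIN7-like peaked at 0.2 h on the east and 19.6 h on the west side, and IAA19-like at 22.1 and 17.7 h. XTH33-like peaked at 21.8 and 18.4 h with an amplitude of 28.8 CPM on the east and 90.7 CPM on the west. EXPA8-like, not one of the 9 genes more than 3 h apart, peaked at 21.4 and 18.7 h, a difference of -2.7 h. Going the other way, the SAUR-like gene peaked at 8.9 h on the east and 13.6 h on the west, and XTH23-like at 10.4 and 19.1 h. KAT1-like peaked together on both sides, at 1.0 and 1.2 h, and LNG2-like at 18.8 and 18.3 h.

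**Figure D5:**
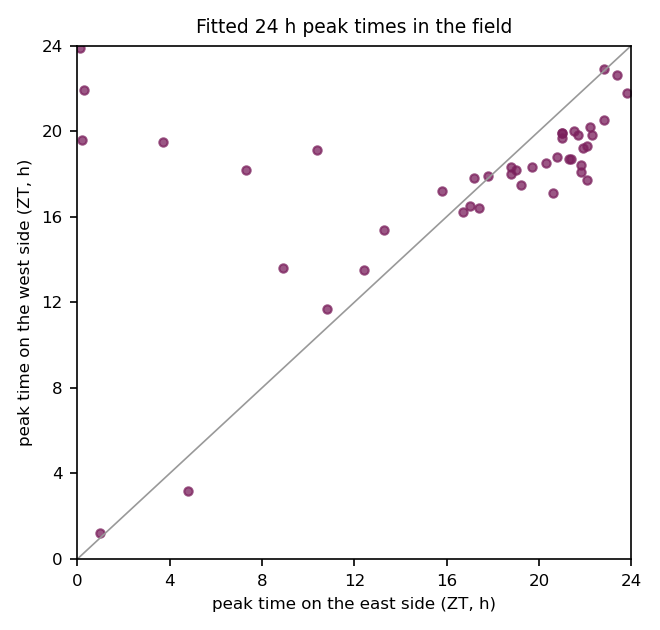
Peak time of the fitted 24 h rhythm on the east (horizontal) and west (vertical) sides, in hours after dawn, for the 44 genes rhythmic on both. Most lie between ZT16 and ZT20 on the west axis (30 of 44), and 33 of 44 lie below the line of equal times allowing for the 24 h cycle.

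The other genes of the same pathways did not all follow the members. The families were read from the study's annotation tables, which favour genes called there, so the counts are not those of whole families. Of 16 other Aux/IAA genes tested in the chamber, 4 were called toward the shaded and 3 toward the lit side at ZT7, and 1 and 5 at ZT21. In the field, of 17 tested, 6 were called toward the west and 1 toward the east at ZT16 (median 0.41). Of 17 other ARF genes, 0 were called toward the shaded and 5 toward the lit side at ZT7. ARF16-like was called in that direction too, but not with the replicate block.

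Of 18 other XTH and related xyloglucan genes, 6 were called toward the shaded and 2 toward the lit side at ZT7, and of 19 in the field 3 toward the west and 1 toward the east at ZT16 (median 0.59). Of 31 other genes of auxin transport and its kinases, 7 and 1 were called at ZT7 and 2 and 3 at ZT21. Of 16 other expansins, 4 and 3 were called at ZT7, and of 33 other brassinosteroid genes 10 and 2. In the field at ZT16, the calls toward the west and the east were 2 and 3 for auxin transport and 2 and 3 for expansins. They were 2 and 2 for brassinosteroid genes and 1 and 1 for the other ARF genes. Of 28 genes of phototropin signaling, 5 and 9 were called at ZT7, none of them a member of the set. Of 30 tested in the field, 5 were called toward the west and 2 toward the east at ZT16. The 12 clock genes, also without a member, had 5 called toward the lit side at ZT7 and 0 on either side of the field at ZT8 and ZT16.

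Markers of cell types were summed per library, and such sums cannot tell a change of tissue make-up from a change of expression. At ZT7 the epidermal sum over 17 genes was 417.8 to 987.8 CPM on the shaded and 393.8 to 722.3 CPM on the lit side, and at ZT21 379.8 to 758.8 and 362.9 to 755.8 CPM. The ranges overlapped at both times. The sum of 10 genes of photosynthetic cells at ZT21 was 879.5 to 1161.5 CPM on the shaded and 1019.4 to 1575.4 CPM on the lit side. In the field at ZT16 it was 237.6 to 330.3 CPM on the west and 341.2 to 450.8 CPM on the east, with no overlap, while the epidermal sum was 840.5 to 1138.8 and 716.2 to 1061.7 CPM. The photosynthetic markers thus moved with the west-sided calls at ZT16, in the opposite direction, and their part in those calls was not tested.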

How the data were processed

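PolyA RNA was sequenced from 180 stem-peel libraries. The authors built a transcriptome from the Ha412HOv2 genome and its Eugene annotation with Cufflinks 2.2.1, quantified quality-filtered single-end reads with Salmon 1.4.0, and deposited estimated counts per gene and TMM-normalized CPM (the deposited signal used to choose the genes and to print levels). The methods name 8 chamber time points without ZT4, whereas the labels give 9, and the labels were followed.

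The 60 genes and the gene lists were chosen with earlier results of these data known. Estimated counts were rounded, a gene was kept if 6 chamber or 3 field libraries had 10 counts or more, and all groups of an experiment were fitted together with edgeR 4.0.16 (TMM, quasi-likelihood test, Benjamini-Hochberg adjustment over all genes tested, threshold 0.05) in R 4.3.3. Fold changes are from these fits, ± SE. Rhythms were fitted as a 24 h cosine. The procedure was tested on simulated counts. Alternatives were DESeq2 1.42.0, RLE scaling, no filter on low counts, each time point alone, single days, each replicate number left out and a replicate block.

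Samples were grouped by the side and time in the labels. In the chamber, all 54 pairs of same-numbered shaded and lit libraries deviated together from their group means (correlations across genes of 0.36 to 0.90, median 0.62), so blocked values stand beside results they change.

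Named genes are the 10 largest scores, members whose identifier the study's text gives or whose match is in a gene list, and the largest called fold change of each direction per comparison. PMEI-like, PME-like and STP1-like were chosen after their values were seen. Columns of the study's own comparisons and expression values in its supplementary tables were not used, and 0 columns belonged to no known sample. The 5074975 counts or more per field library and 4485611 or more per chamber library set the counting precision.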

Additional observations from a re-analysis of the deposited data

Results flagged for a closer look

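In 80 groups of 6 libraries whose values are printed above, 6 held a library far from the other 5, and chance flags about 1 in 20 such groups. At ZT7 on the shaded side, XTH33-like reached 243.5 CPM in 1 library, with the next at 118.4 CPM, and the PMEI-like gene reached 236.1 CPM, with the next at 153.6 CPM. At ZT7 on the lit side, XTH33-like reached 86.2 CPM (next 31.4 CPM) and Ha412HOChr15g0723971 reached 5.27 CPM (next 2.26 CPM). In the field at ZT8, the SAUR-like gene reached 6.68 CPM in 1 west library (next 3.76 CPM) and Ha412HOChr06g0254121 reached 27.7 CPM in 1 east library, with the others at 0.

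The side difference of the set depended on the time at which it was measured. It changed from ZT7 to ZT21 in the chamber in 21 of the 60 genes, and from ZT8 to ZT16 in the field in 44 of the 60, both by an interaction test in edgeR with adjustment over all genes.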

How the results depend on the processing

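Counts are members called of 60. With the replicate number as a block, the chamber counts were 25 at ZT9, 22 at ZT12, 26 at ZT21 and 40 for the change from ZT7 to ZT21, and the field counts 1 at ZT0, 13 at ZT4 and 30 at ZT12. The methods took both field sides from the same plants without tying replicate numbers to plants, and 35 of 36 same-numbered pairs had a correlation of deviations over 0.1 (lowest 0.09), so blocked field values stand beside the counts they move. Of the member calls it repeated, the block kept 210, lost 2 and reversed 0. DESeq2 called 1 member at ZT0 and 5 at ZT4 in the field. Fits of a single field time point gave 6 at ZT4 and 0 at ZT20. The first day alone gave 4 at ZT0, 9 at ZT8, 4 at ZT12, 27 at ZT16 and 1 at ZT20, and the second day 0 at ZT4, 9 at ZT8 and 7 at ZT12. XTH33-like (Ha412HOChr17g0856591) at ZT20 turned to -0.16 on the first day. The cause of these changes was not tested, beyond single days and time points having fewer libraries.

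Leaving out each replicate number in turn gave 17 to 26 members at ZT7, 7 to 12 at ZT9, 6 to 10 at ZT12, 8 to 12 at ZT21, 12 to 21 for the shaded and 19 to 32 for the lit side from ZT7 to ZT21, 20 to 23 and 13 to 24 for the shaded and lit side from ZT3 to ZT7, and 8 to 27 for the change of the side difference. In the field it gave 0 to 1 at ZT4, 5 to 10 at ZT8, 7 to 10 at ZT12, 29 to 35 at ZT16, 0 to 5 at ZT20 and 35 to 38 for the change from ZT8 to ZT16. Rhythmic members were 44 to 48 on the east and 45 to 47 on the west side. Of 2961 repeats of 304 member calls, 2477 kept direction and side of the threshold and 1 reversed.

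Chosen again with 0.5 or 5 CPM added, a mean of at least 10 CPM, or medians, the set shared 56, 48, 42 and 51 members, and 51 to 56 without 1 replicate. Of 190 alternative counts for the gene lists, 154 stayed within 1.5 times the full count. Low members limited precision, with levels near 0 in some libraries.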
